A study of Sorghum bicolor with 9 samples.

Results

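A set of 5 sorghum genes whose names tie them to heat or to drying was followed through anther development. They comprised 2 small heat shock protein genes, a heat shock cognate gene of the HSP70 class, a dehydrin gene and a gene related to late embryogenesis abundant (LEA) proteins. The 5 were chosen by gene ID with their measured stage values known. Of the 5, 4 stand in the part of the study's list of differentially expressed genes held here, which covers chromosomes 1 and 2. The study's text also places the small heat shock gene of chromosome 3 among its differentially expressed genes. The values that selected the genes are therefore given below as a description without a test. Each of the 5 IDs was found at 1 locus that carried no other ID, out of 40082 loci in the expression table, of which 30776 both carried a gene ID and exceeded 0 in some stage.

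The libraries came from whole anthers of the sorghum variety M35-1, grown in an open field, with 3 libraries for each of 3 stages sorted by anther length. Stage A1 held meiocytes and tetrads, A2 held microspores and A3 held mature pollen. The authors deposited a single FPKM value (fragments mapped to a transcript, scaled to its length and to the sequencing depth) per locus and stage, with the 3 libraries combined, so no value has a replicate error and the depth behind it is unknown. A whole anther mixes its wall, the tapetum and the germ line, and in such bulk samples fewer cells of a type and less RNA per cell cannot be told apart. Library labels carried 2 codes, and all 3 A3 libraries shared code P5197, against 1 of 3 libraries in A2 and 1 of 3 in A1. For a single gene the code and the A3 stage cannot be told apart.

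Marker genes were picked from the candidate genes that the study chose on these samples, and were assigned to cell types here. The sums of these lists moved with stage. The candidates left out were mixed. The study places some orthologs of the meiotic genes MEL2 and RPA1c in a group that peaks in A3, and others in a group high in A1 and A2. An ortholog of WDA1, which it ties to the tapetum and anther walls, is placed with the A3 peak. Over A1, A2 and A3, the 4 mature pollen markers summed to 0.124, 0.0793 and 214 FPKM, with 3 of the 4 listed at 0 in A2. The 5 tapetum markers summed to 1723 FPKM at A1, 4984 at A2 and 109.7 at A3 (highest single marker at A2 1820 FPKM, range at A3 0.609 to 101). For the 5 meiocyte markers the sums were 94.7, 73.5 and 32.6 FPKM, with single markers at A3 between 0.0273 and 25.2. Each marker list thus moved with stage beside the values that follow, and the part of cell composition in those values was not tested.

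Small heat shock proteins are chaperones that hold unfolding proteins in a soluble state without using ATP, and many of their genes are switched on strongly by heat. Proteins of the HSP70 class bind exposed stretches of other proteins and release them on ATP hydrolysis, helped by DnaJ partners, and the cognate forms are the ones made without heat. Dehydrins and other LEA proteins are hydrophilic proteins that build up in maturing seeds and in drying or cold tissue. Mature pollen is itself shed in a partly dehydrated state, and pollen development is known to be a heat-sensitive phase of the grass life cycle.

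The 5 genes differed in course and in level. All 3 heat shock genes were lowest in microspore anthers, the dehydrin gene was highest with mature pollen, and the LEA-related gene had its value almost wholly in microspore anthers. In A1 the order of levels, as FPKM and therefore per transcript length, was the dehydrin gene, the small heat shock gene of chromosome 1, that of chromosome 3, the cognate gene and the LEA-related gene. In A2 the LEA-related gene stood close behind the small heat shock gene of chromosome 1, at 11.3 against 11.9 FPKM, ahead of the small heat shock gene of chromosome 3 and the cognate gene. In A3 it was the lowest, and the cognate gene stood above the small heat shock gene of chromosome 3. Without replicate values, which neighbours in this order differ beyond their spread cannot be said.

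**Figure D1:**
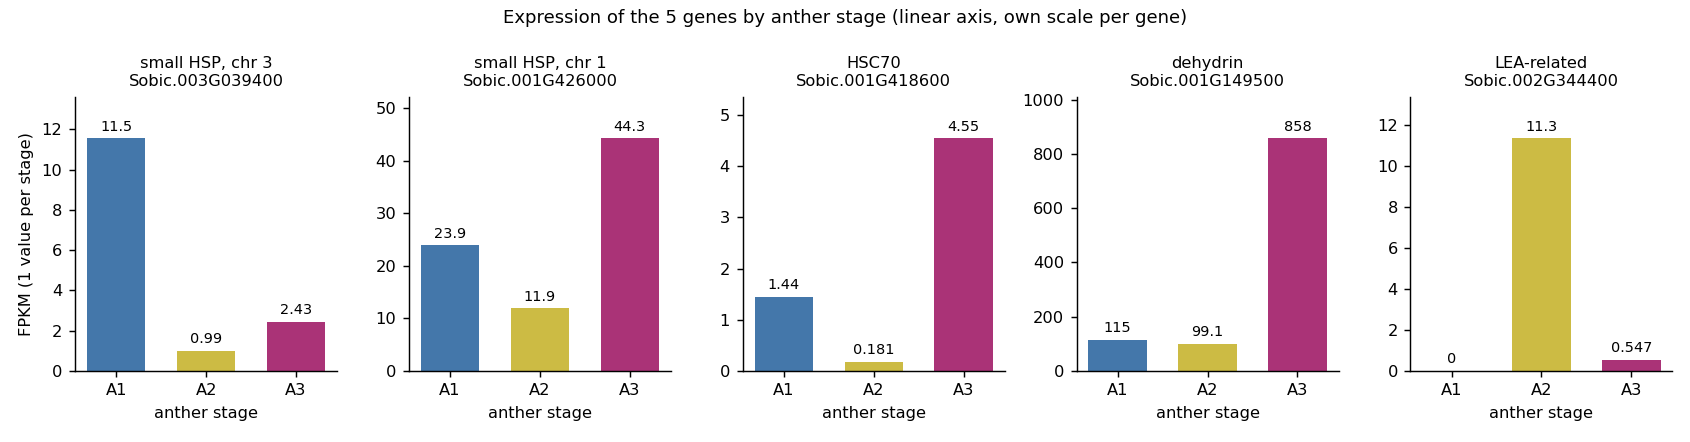
FPKM (linear vertical axis, own scale per gene) of the 5 genes in anther stages A1, A2 and A3, with 1 bar for the single combined value of each stage and no error bar. The 3 heat shock genes are lowest in A2, the dehydrin gene reaches 858 FPKM in A3, and the LEA-related gene reaches 11.3 FPKM in A2 and is listed at 0 in A1.

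The first small heat shock gene, Sobic.003G039400.v3.1, lies on chromosome 3 from 3695196 to 3696666 of genome version v3.0.1 and is named by the study as orthologous to rice small heat shock genes. Its FPKM at A1, A2 and A3 was 11.5, 0.990 and 2.43. It was thus highest in meiotic anthers and lowest with microspores, with mature pollen in between. On the log2(FPKM + 0.5) scale used for every difference and fold below, A2 was lower than A1 by 8.08-fold (log2 difference -3.02). A3 was above A2 by 1.97-fold (0.98), just inside a 2-fold limit, where the plain ratio of FPKM was 2.46 and a smaller added amount of 0.1 FPKM gave a log2 difference of 1.22. A3 stayed 4.11-fold below A1 (-2.04). Among loci ranked by FPKM it stood at the 73.1 percentile in A1, the 44.6 percentile in A2 and the 51.2 percentile in A3.

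The second small heat shock gene, Sobic.001G426000.v3.1, matching an Arabidopsis HSP20-like chaperone, lies on chromosome 1 from 70571281 to 70572094. Stage A1 gave 23.9 FPKM, A2 gave 11.9 and A3 gave 44.3. It was the more abundant small heat shock gene in each stage, and unlike the copy on chromosome 3 it had its highest value with mature pollen. A2 was below A1 by 1.97-fold (log2 difference -0.98), A3 was above A2 by 3.61-fold (1.85), and A3 was above A1 by 1.83-fold (0.87). The pair therefore ran the same way at each step and in opposite directions over the whole interval of A3 against A1. Small heat shock genes and HSP70 genes have close copies, and how reads shared between copies were assigned is not given in the sources used here, so values of single copies are uncertain.

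The heat shock cognate gene, Sobic.001G418600.v3.1, lies on chromosome 1 from 69932394 to 69935701, at 635579 bases from the small heat shock gene of the same chromosome. It matches an Arabidopsis heat shock cognate protein and a rice DnaK family protein. Meiotic anthers gave 1.44 FPKM, microspore anthers 0.181 and anthers with mature pollen 4.55, which made it the lowest of the 3 heat shock genes in A1 and A2. Relative to its own level it had the deepest low point in A2 when set against A3, with A3 above A2 by 7.41-fold (log2 difference 2.89). A2 was below A1 by 2.86-fold (-1.51) and A3 was above A1 by 2.60-fold (1.38). Its low values make these folds depend on the amount added before the log, since the plain ratio of FPKM was 25.2 for A3 over A2 and 7.99 for A1 over A2.

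The low point in A2 was measured against the rest of the table. Of 30776 loci, 80 (0.26%) had an A2 value below both A1 and A3 by 2-fold or more, and of the 3 heat shock genes the cognate gene was 1. Each small heat shock gene missed that limit at a single step, with log2 differences of -0.98 and 0.98 against a limit of 1 in size. The count rests on the amount added, since with 0.1 FPKM in place of 0.5 all 3 of 3 heat shock genes passed, beside 216 loci (0.702%), and on plain ratios the missed steps were 2.01 and 2.46. With 1 FPKM added, 1 of 3 passed, beside 45 loci (0.146%). The 3 genes were chosen with these stage values known, so nothing is read from their count against the share of all loci. The 80 loci were of modest abundance by their medians, at 3.33, 0.781 and 7.26 FPKM over A1 to A3. Single loci stood far higher, with Sobic.006G059400 at 15282.5 FPKM in A3. Besides the cognate gene, 7 of the 80 had a described match in the study's list of chromosomes 1 and 2, and no family recurred among them. Loci on the other chromosomes could have no description here, and some on chromosomes 1 and 2, such as Sobic.001G012400, had none either. Whether a family recurs among the 80 thus cannot be said. Over A1 to A3, the jasmonate ZIM-domain gene Sobic.001G482700, coding for a repressor of jasmonate responses, stood at 18.2, 8.51 and 41.5 FPKM. The basic helix-loop-helix transcription factor gene Sobic.001G107400 stood at 8.36, 3.92 and 10.6 FPKM, and the EF-hand gene Sobic.002G199500, of a calcium-binding family, at 6.64, 2.62 and 9.62 FPKM. The other 4 were a glutathione S-transferase gene (Sobic.001G319500), a phospholipase gene (Sobic.001G429900), a purple acid phosphatase gene (Sobic.001G442300) and a COBRA-like gene (Sobic.002G368100), with A2 values between 0.196 and 0.872 FPKM and A3 values of up to 26.4 FPKM.

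The dehydrin gene, Sobic.001G149500.v3.1, on chromosome 1 from 12013030 to 12014781, was abundant in every stage. At A1 its level was 115 FPKM, at A2 99.1 and at A3 858. The meiotic and microspore values lay close together, with A2 below A1 by 1.16-fold (log2 difference -0.22). A3 was above A2 by 8.62-fold (3.11) and above A1 by 7.42-fold (2.89). Among loci with a gene ID its rank by FPKM at A1, A2 and A3 was 856, 975 and 56. Its share of the FPKM summed over all 40082 loci was 0.0180%, 0.0147% and 0.105%.

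The LEA-related gene, Sobic.002G344400.v3.1, lies on chromosome 2 from 71078612 to 71080331. Its rice match is named as a root cap and late embryogenesis related protein, a name given by similarity alone. Its A1 value was listed as 0, its A2 value was 11.3 FPKM and its A3 value 0.547. It was the only one of the 5 genes with its highest value in microspore anthers. A3 was below A2 by 11.3-fold (log2 difference -3.50), and no fold is given against A1, where a listed 0 need not mean absence. In the whole table, 529 of 30776 loci (1.72%) had an A2 value above both A1 and A3 by 2-fold or more, with a median of 3.67 FPKM in A2.

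**Figure D2:**
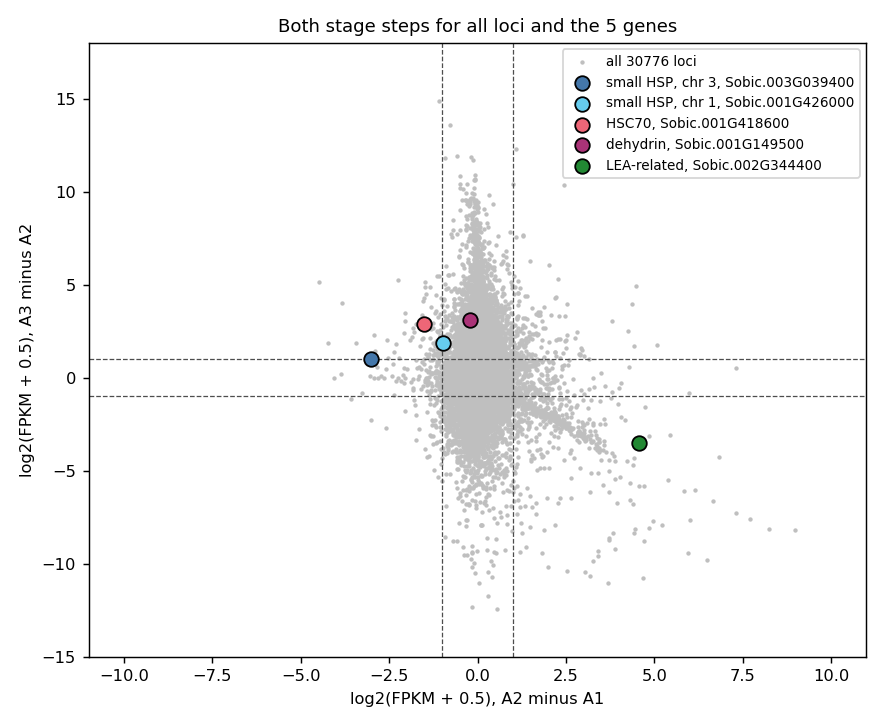
Difference in log2(FPKM + 0.5) between A3 and A2 (vertical axis) against that between A2 and A1 (horizontal axis) for 30776 loci (grey points) and the 5 genes (coloured circles), with dashed lines at 2-fold. The 3 heat shock genes lie to the left of 0 and above 0, the dehydrin gene lies near 0 on the horizontal axis at 3.11 on the vertical one, and the LEA-related gene, listed at 0 in A1, lies far to the right at -3.50.

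By fold alone, 2 of the 5 genes were lower in A2 than in A1 by 2-fold or more (the small heat shock gene of chromosome 3 and the cognate gene), against 0.741% of all loci. Counted as higher in A2 was 1 gene, the LEA-related one, against 2.91% of all loci. In A3 against A2, 3 of the 5 were higher, among 16.5% of all loci, namely the small heat shock gene of chromosome 1, the cognate gene and the dehydrin gene. The LEA-related gene was lower, among 12.6% of all loci. In A3 against A1, 3 of the 5 were higher, among 17.4% of all loci, and 1, the small heat shock gene of chromosome 3, was lower, among 12.6% of all loci. The LEA-related gene counted as higher there with a difference of 1.07, and it dropped below the limit with 1 FPKM in place of 0.5 added (0.63) and after quantile normalization (0.84). Because differential expression in these contrasts selected the genes, nothing is read from these counts against the background. With 0.1 FPKM added, the small heat shock gene of chromosome 1 also counted as lower in A2 than in A1, and that of chromosome 3 as higher in A3 than in A2. The comparisons also share stages, so the differences of a gene are not independent of each other.

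The loci beside the 5 genes mostly differed less between stages. Since the 5 genes were chosen as differing between stages, with their values known, nothing is read from that contrast. Over the 10 nearest loci with a gene ID, 1 on each side of each gene, the log2 difference of A2 against A1 ran between -0.60 and 0.27. All 10 of 10 were within 2-fold, where only 2.91% of all loci were higher and 0.741% lower. Near the floor, Sobic.001G418500 (0.0432, 0.0077 and 0 FPKM over A1 to A3) and Sobic.001G149400 (0.0287, 0.0414 and 0.00632 FPKM) could not pass 2-fold with 0.5 FPKM added. For A3 against A2 the difference ran between -1.48 and 0.11. By 2-fold or more, 0 loci were higher and 2 lower, beside 16.5% and 12.6% of all loci. Of those 2, Sobic.002G344301, at 11975 bases before the LEA-related gene, was lower in A3 as that gene was (0.938, 1.24 and 0.148 FPKM over A1 to A3), while Sobic.001G425900, beside the small heat shock gene of chromosome 1, ran against it (1.86, 2.21 and 0.472 FPKM). Only 260 bases after the small heat shock gene of chromosome 3, Sobic.003G039500 stood at 3.03, 3.16 and 1.64 FPKM over the stages A1 to A3. Only 250 bases after that of chromosome 1, Sobic.001G426100 had 30.2, 30.2 and 19.5 FPKM, so that it was lower in A3 while the heat shock gene was higher. At 271 bases after the cognate gene, Sobic.001G418650 was nearly flat with 3.68, 4.28 and 4.18 FPKM. Beside the dehydrin gene, Sobic.001G149600 had 7.15, 4.56 and 3.58 FPKM, and 564 bases after the LEA-related gene Sobic.002G344500 had 4.83, 4.52 and 4.91 FPKM.

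Loci with the most similar values were ranked by the Euclidean distance of log2(FPKM + 0.5) over the 3 stage values, among loci with a single gene ID. The cognate gene had close counterparts, with Sobic.007G122700 at a distance of 0.189 (1.62, 0.139 and 4.19 FPKM over A1 to A3). The small heat shock gene of chromosome 1 was nearest to Sobic.004G033700 (0.208), followed by Sobic.002G159300 (0.342), which matches ferrochelatase, the last enzyme of haem synthesis. Over A1 to A3 that gene measured 23.0, 15.0 and 41.7 FPKM. The nearest locus to the small heat shock gene of chromosome 3, Sobic.010G028950, was farther off, at 1.01, with 7.79, 1.73 and 1.39 FPKM.

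The dehydrin gene was nearest to Sobic.003G327700 (distance 0.689, with 130.4, 132 and 1236 FPKM over A1 to A3) and then to Sobic.001G098500 (0.735), a CBS domain gene with 93.5, 146 and 661 FPKM. The LEA-related gene was nearest to Sobic.001G318700 (0.737), matching a glutathione S-transferase, which was likewise listed at 0 in meiotic anthers and measured 14.0 FPKM with microspores and 1.17 with mature pollen. None of the 5 genes was among the 3 nearest loci of another. With only 3 stage values, such likeness is a description of the course alone.

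**Figure D3:**
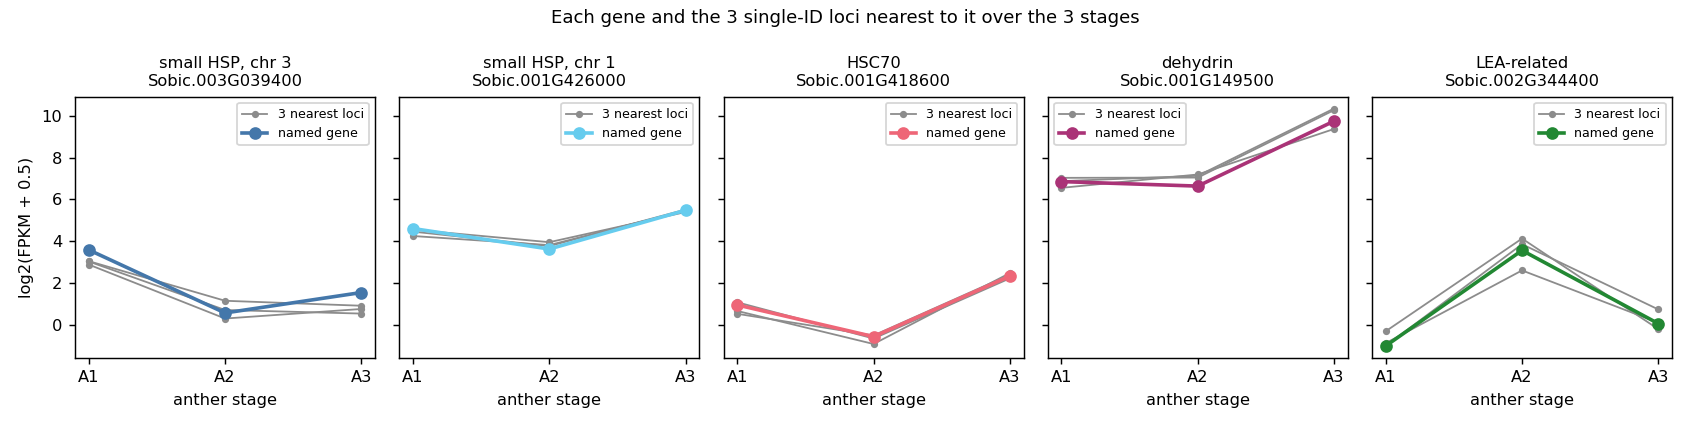
Values of log2(FPKM + 0.5) (vertical axis) in stages A1, A2 and A3 for each of the 5 genes (coloured line) and for the 3 loci with a single gene ID at the smallest Euclidean distance from it (grey lines), with 1 combined value per stage. The grey lines run closest for the cognate gene, where the nearest lies at 0.189, while the nearest to the small heat shock gene of chromosome 3 lies at 1.01.

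Other genes of the same families were taken by key word from the study's list of differentially expressed genes of chromosomes 1 and 2, and 18 were found, 4 of the 5 genes among them. The study chose this list on these samples, so that most entries had to differ somewhere and the counts are no separate evidence. The part used here leaves out the other chromosomes and gave only 1 small heat shock gene. The study itself describes several heat shock protein genes, that of chromosome 3 among them, in a group high in A1 and A3 with a dip at the microspore stage. A low point in A2 is thus not particular to the genes described here. The heat shock and chaperone families held 13 genes, of which, in A3 against A1, 5 were higher and 7 were lower by 2-fold or more, with a median log2 difference of -1.11, beside 17.4% higher and 12.6% lower and a median of 0.0095 over all loci. In A2 against A1, 2 of the 13 were higher and 1, the cognate gene, was lower, beside 2.91% and 0.741% of all loci. Summed over the 13 genes, FPKM came to 609.6 at A1, 483 at A2 and 343 at A3. That order was set by 3 abundant genes, coding for HSP90, HSP60 and a mitochondrial HSP70, which summed to 551, 413 and 179 FPKM. The sum of the other 10 genes ran the other way, at 58.9, 69.9 and 163 FPKM. The heat shock factor gene Sobic.002G225300 alone gave 0.483, 20.7 and 67.0 FPKM of that sum. Its rise from A1 to A2 exceeded that of the sum, so the remaining genes together were lower in A2 than in A1. The small heat shock gene of chromosome 1, itself one of the 5 genes, gave 23.9, 11.9 and 44.3 FPKM of the sum. Single genes among the 10 were split, since 3 of 6 DnaJ genes and 1 of 2 heat shock factor genes were lower in A3 than in A1.

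The abundant chaperone genes of the list, a mitochondrial one among them, ran the other way from the cognate gene and the small heat shock gene of chromosome 1 in A3. The HSP90 gene Sobic.002G243500, of a class that completes the folding of kinases and receptors, stood at 322, 244 and 118 FPKM over A1 to A3. The HSP60 gene Sobic.001G228200, of the chaperonin class that encloses proteins while they fold, had 121, 74.1 and 12.3 FPKM, 9.46-fold lower in A3 than in A1. A mitochondrial HSP70 gene, Sobic.001G193500, stood far above the cognate gene in every stage with 108, 95.3 and 49.5 FPKM. Each was lowest with mature pollen, and in none was A2 the lowest stage.

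DnaJ genes, coding for the partners that stimulate HSP70 proteins, were split evenly. Of 6, A3 was above A1 in 3 and below it in 3, by 2-fold or more in each, beside the same 17.4% and 12.6% of all loci. Sobic.001G024100 was 15.0-fold higher (0.805, 1.04 and 19.0 FPKM over A1 to A3) and Sobic.001G189700 was 4.89-fold lower, with its highest value in microspore anthers (2.55, 10.1 and 0.124 FPKM). The heat shock factor genes, coding for transcription factors that bind heat shock promoters, differed from each other. Sobic.002G225300 had 0.483, 20.7 and 67.0 FPKM, 68.7-fold higher in A3 than in A1, while Sobic.002G224200 had 1.11, 0.872 and 0.0897 FPKM. Neither had its lowest value in A2.

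Among dehydrin and LEA genes, in A3 against A1, 3 of 5 were higher and 2 of 5 lower by 2-fold or more, the LEA-related gene with its listed 0 being counted as higher, beside 17.4% and 12.6% of all loci. The dehydrin gene was the most abundant of them in each stage. Also highest in A3 was Sobic.002G103900, matching an LEA protein, with 0.0261, 0.0194 and 8.85 FPKM over A1 to A3, 17.8-fold higher in A3 than in A1. A further 2 genes named for LEA hydroxyproline-rich glycoproteins, whose rice matches are harpin-induced proteins rather than LEA proteins, were lower in A3, with 9.16, 10.3 and 0.816 FPKM for Sobic.001G022400 and 2.39, 3.04 and 0.185 FPKM for Sobic.001G191800.

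**Figure D4:**
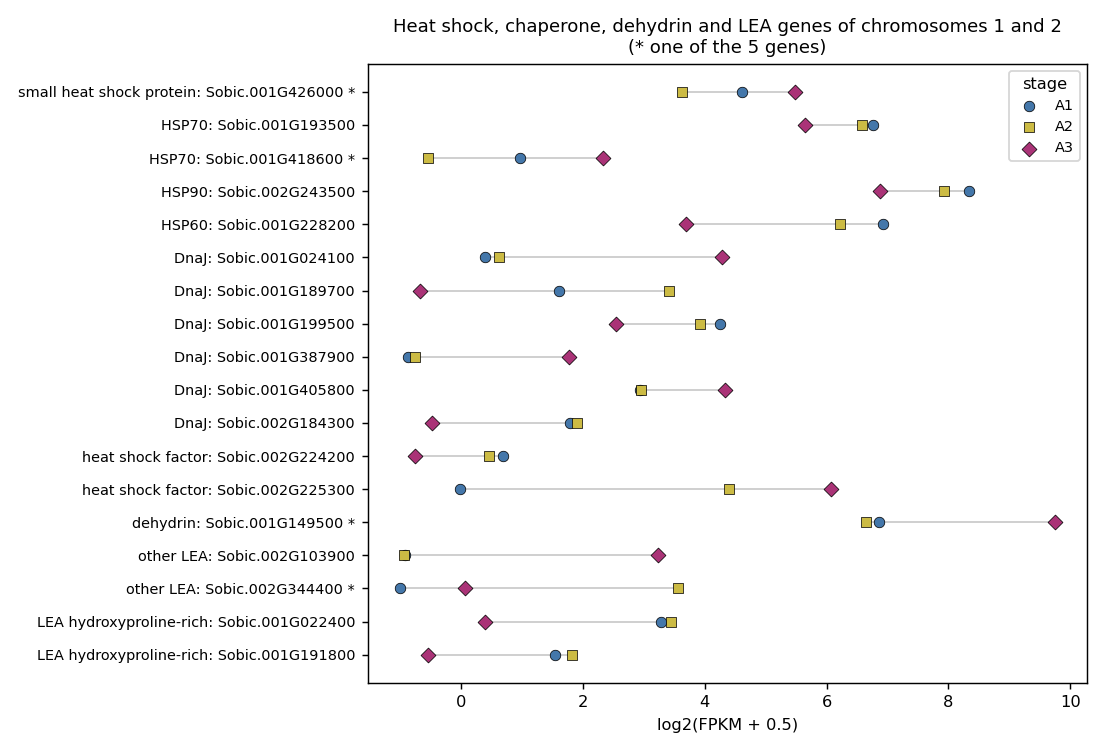
Values of log2(FPKM + 0.5) (horizontal axis) in stages A1 (circles), A2 (squares) and A3 (diamonds) for the 18 heat shock, chaperone, dehydrin and LEA genes that the study's list holds on chromosomes 1 and 2, with 1 combined value per stage and an asterisk for the 4 genes described above. The A2 square lies well to the left of both other marks for the small heat shock gene and the cognate gene and for no other of the 18, and the dehydrin gene has the rightmost A3 diamond, at 858 FPKM.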

How the data were processed

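Whole-anther RNA was sequenced in 9 libraries, 3 per stage. The authors filtered and trimmed reads (AdapterRemoval), removed rRNA reads (Bowtie2 2.2.9), aligned with STAR to the Phytozome genome v3.0.1, used StringTie 1.3.3b for transcript assembly and quantification, and ran cuffdiff between stages. The deposited table holds FPKM values on a linear scale, 1 per locus and stage, with the libraries combined by the authors, so the tests planned over libraries (limma, leaving out a library, a replicate or library code term) could not be fitted and no p-value is given. Combining hides any library that stands apart, and FPKM is relative to each stage's total.

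Differences and folds were computed with python 3.11.15, numpy 2.4.6 and pandas 2.3.3 on log2(FPKM + 0.5) for every ID-bearing locus that exceeded 0 somewhere, with a limit of 2-fold. The counting was tested on simulated data. Starts have 1 added, since 744 starts then met one of the RefSeq table, compared with 170 as deposited. That table matched 0 gene IDs and gave no descriptions, so family names came from the matches in the study's gene list (1594 genes here, 963 on chromosome 1 and 631 on chromosome 2). Sequences, promoter motifs, proteins and green tissue markers were not analysed here. Named genes are the 5 genes, their 3 nearest loci each, neighbouring loci and family genes, while the neighbours and the loci with a low point in A2 were picked after their values were seen. The 5 genes and the lists were chosen with earlier results of these data known. Alternatives were pseudocounts of 0.1 and 1, median-of-ratios scaling, quantile normalization, a mean FPKM of at least 1 and, added after the data were seen, loci with 1 gene ID and recounts of the loci low in A2.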

Additional observations from a re-analysis of the deposited data

How the results depend on the processing

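No paired analysis was possible because the libraries of a stage were combined before deposition, and leaving out a library or adding a library code term could not be run for the same reason. Over 60 values (5 genes, 3 comparisons, 4 alternatives of pseudocount or scaling) 0 changed sign, 53 stayed within 1.5 times of the reported fold and 4 crossed the 2-fold limit. With a pseudocount of 0.1 in place of 0.5, which weighs low values more by construction, the log2 differences of Sobic.001G418600 were -2.46 for A2 minus A1 and 4.05 for A3 minus A2. Those of Sobic.002G344400, listed at 0 in A1, were 6.84, -4.14 and 2.69 for A2 minus A1, A3 minus A2 and A3 minus A1. With a pseudocount of 1, Sobic.001G418600 had 2.23 for A3 minus A2 and Sobic.002G344400 had 3.63 for A2 minus A1. The pseudocount of 0.1 also took Sobic.003G039400 past 2-fold for A3 minus A2 (1.22) and Sobic.001G426000 just past it for A2 minus A1, so that the family genes lower in A2 than in A1 numbered 2. Of all loci, 4.61% were then higher and 1.78% lower in A2 than in A1. The loci with a low point in A2, recounted after the data were seen, numbered 216 (0.702%, with 3 of the 3 heat shock genes) at 0.1 and 45 (0.146%, with 1 of 3) at 1. With a mean FPKM of at least 1, where fewer loci are counted, 19% were lower in A3 than in A1. The depth of the combined values is unknown, so how far low values such as 0.181 FPKM can be read is not known either.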
